A study of Homo sapiens with 4 samples.

Results

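The integrated stress response was followed through 10 of its genes in WM35 cells, a human melanoma line of the radial growth phase. The genes were taken by symbol: the transcription factors ATF3, ATF4, ATF5 and DDIT3 (which encodes CHOP), the effectors DDIT4, TRIB3 and CHAC1, and the amino acid synthesis genes ASNS, PSAT1 and PHGDH. All 10 were found among 17144 named genes, and all 10 lay at or above the filter on low values (a mean log2 value of 3.96 over the 4 arrays), which 10707 named genes passed. WM35 cells received C646, a small-molecule inhibitor of the acetyltransferases p300 and CBP, at 20 µM, or the solvent DMSO at 0.2%, for 6 h or 24 h. The study asked how blocking p300 acetyltransferase activity alters transcription in melanoma cells. Each of the 4 combinations was measured on 1 Affymetrix exon array from 100 ng of total RNA, so no difference between 2 arrays can be checked on replicates or given a p-value. All cultures were of a single line, grown in medium with serum. Total RNA of whole cultures was measured, in which fewer cells of a type and less RNA per cell cannot be told apart.

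The integrated stress response starts when kinases that sense amino acid shortage, unfolded protein, viral RNA or haem shortage phosphorylate the translation factor eIF2. General protein synthesis then falls while the ATF4 messenger RNA is translated more, so ATF4 is controlled largely at the level of translation, which an RNA array does not measure. ATF4 protein binds composite C/EBP-ATF elements and switches on genes of amino acid synthesis and transport, tRNA charging and further stress factors, among them CHOP. CHOP is known for its part in cell death under prolonged stress.

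The promoters of the members were read for motifs of the response. RefSeq promoter windows of GRCh38.p14, from 250 bases before to 50 bases after each annotated start, were matched by symbol for all 10 members. They were searched on both strands for TGATGNAA, the core of the C/EBP-ATF element. The motif occurred in a window of 3 members, ASNS, CHAC1 and ATF3, and in 4.46% of all 27305 genes with a window. The stretches of 100 bases that hold it are shown with the match in capitals, together with a stretch of DDIT3, whose windows did not hold these letters and in which CCAAT (on either strand) is in capitals instead. CCAAT is short and occurred in 39.7% of genes with a window.
ASNS, chr7:97872423-97872522, minus strand: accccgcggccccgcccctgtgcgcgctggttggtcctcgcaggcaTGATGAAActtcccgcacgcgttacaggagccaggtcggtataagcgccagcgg
CHAC1, chr15:40953221-40953320, plus strand: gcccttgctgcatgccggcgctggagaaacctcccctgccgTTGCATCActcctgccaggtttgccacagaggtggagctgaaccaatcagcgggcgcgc
ATF3, chr1:212565170-212565269, plus strand: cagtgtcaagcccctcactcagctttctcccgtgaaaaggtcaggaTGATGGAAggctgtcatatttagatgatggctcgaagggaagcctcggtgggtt
DDIT3, chr12:57520561-57520660, minus strand: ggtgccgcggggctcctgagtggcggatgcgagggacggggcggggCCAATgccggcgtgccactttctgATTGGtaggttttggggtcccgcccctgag
The ASNS match began 68 bases before the start, that of CHAC1 (read on the opposite strand) 209 bases before it, and that of ATF3 191 bases before the first of its 2 annotated starts. A match is a description of the letters and not evidence of binding. Sequence more than 250 bases before a start was not searched, so a lack of the motif, as for DDIT3, holds for these windows only.

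DDIT3, the CHOP gene, stood apart from the other members: it was the only member whose C646 and DMSO arrays differed by 2-fold, and it was higher with C646 at both times. It read 5.81 with DMSO and 6.22 with C646 at 6 h, and 5.39 with DMSO and 6.57 with C646 at 24 h, on the log2 scale. Both C646 arrays thus lay above both DMSO arrays, an order whose share among all named genes was not counted. The log2 difference, C646 minus DMSO, was 0.42 at 6 h and 1.17 at 24 h, the latter a 2.26-fold higher level. Among the 10707 named genes, 266 differed by at least as much in the same direction at 6 h and 56 at 24 h. The gap at 24 h was made up from both sides, since between 6 h and 24 h the DMSO value changed by -0.42 and the C646 value by 0.34. The change in DMSO was itself unusual, with 1.32% of named genes at least as low. Against the mean of both DMSO arrays the difference was 0.62 at 6 h and 0.97 at 24 h, below 2-fold.

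The other transcription factors of the response differed less between C646 and DMSO than DDIT3 did. ATF4, the central activator, read 8.36 with DMSO and 8.27 with C646 at 6 h, and 8.67 and 8.47 at 24 h, which gives differences of -0.083 and -0.19. Its value was higher at 24 h than at 6 h in both treatments, by 0.31 with DMSO and 0.20 with C646, so time separated the arrays more than treatment did. The probe set that stands for ATF4 is numbered among those of chromosome 17, while the gene lies on chromosome 22. A second ATF4 probe set, numbered with chromosome 22, read 8.23 and 8.21 at 6 h and 8.41 and 8.36 at 24 h, with differences of -0.020 and -0.043. A probe set listed for ATF4 together with other genes was not used.

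ATF5, a close relative of ATF4 that is also translated more when eIF2 is phosphorylated, read 5.73 with DMSO and 5.64 with C646 at 6 h, and 5.84 and 5.62 at 24 h. The differences were -0.091 and -0.22, both below 0, and 18.0% of named genes were at least as low at 24 h. ATF3, an immediate stress-induced repressor and activator, read 4.31 with DMSO and 4.42 with C646 at 6 h, and 4.50 and 4.64 at 24 h. Its differences of 0.11 and 0.14 were no larger than its change of 0.19 between the DMSO arrays. ATF3 values lay near the array medians of 4.39 to 4.41 and not far above the filter level of 3.96, where a difference is hard to read.

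**Figure D1:**
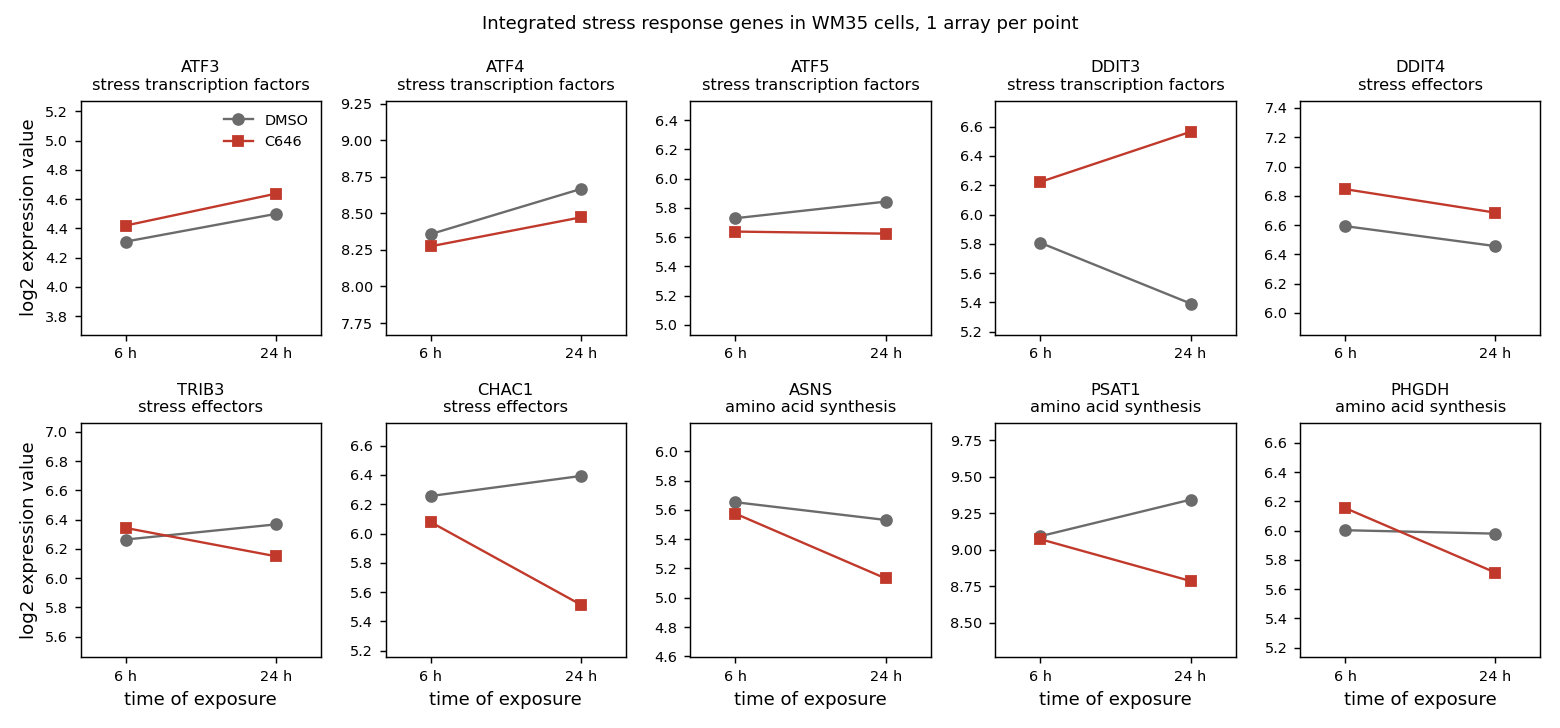
Log2 expression value (vertical axis, each panel spanning 1.6 log2 units) of the 10 members at 6 h and 24 h (horizontal axis), with 1 array per point, DMSO in grey circles and C646 in red squares. The lines of DDIT3 diverge from 0.42 at 6 h to 1.17 at 24 h. Those of 7 of 10 members end with C646 below DMSO, namely CHAC1, the amino acid synthesis genes, ATF4, ATF5 and TRIB3.

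CHAC1 differed in the opposite direction from DDIT3 and had the largest lower difference of the members. It encodes an enzyme that degrades glutathione and is known as a target of the ATF4 and CHOP branch. It read 6.26 with DMSO and 6.08 with C646 at 6 h, and 6.39 with DMSO and 5.51 with C646 at 24 h. The C646 array of 24 h was the low one, below the other 3. The differences were -0.18 at 6 h and -0.88 at 24 h, a 1.84-fold lower level that 3.32% of named genes matched or exceeded in the same direction. From 6 h to 24 h the value changed by 0.14 with DMSO and by -0.56 with C646.

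The other effectors differed less. DDIT4 (also called REDD1), an inhibitor of mTORC1 signalling, read 6.59 with DMSO and 6.85 with C646 at 6 h, and 6.46 and 6.68 at 24 h. Its difference was nearly the same at both times, 0.25 and 0.23, and both C646 arrays lay above both DMSO arrays. A difference at least as high was reached by 8.42% of named genes at 6 h and 22.6% at 24 h. TRIB3, a pseudokinase induced by ATF4 and CHOP that feeds back on ATF4, read 6.26 with DMSO and 6.34 with C646 at 6 h, and 6.37 and 6.15 at 24 h. Its differences of 0.079 and -0.22 had opposite signs.

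The 3 amino acid synthesis genes were all lower with C646 at 24 h and had no common direction at 6 h. ASNS, which makes asparagine and is a classical ATF4 target, read 5.65 with DMSO and 5.57 with C646 at 6 h, and 5.53 and 5.13 at 24 h. PSAT1, the aminotransferase of serine synthesis, read 9.09 and 9.07 at 6 h, and 9.34 and 8.79 at 24 h. PHGDH, which catalyses the first step of serine synthesis, read 6.00 and 6.15 at 6 h, and 5.98 and 5.71 at 24 h. For each of them the C646 array of 24 h was the lowest of the 4. The differences at 24 h were -0.40 for ASNS, -0.56 for PSAT1 and -0.27 for PHGDH, corresponding to levels 1.32-fold, 1.47-fold and 1.20-fold lower. At 6 h they were -0.078, -0.020 and 0.15. A 24 h difference at least as low was reached by 9.43% of named genes for ASNS, 6.29% for PSAT1 and 14.8% for PHGDH.

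Several of these genes have further probe sets that are numbered with other chromosomes and did not all behave alike. A second PSAT1 probe set, numbered with chromosome 1, differed by 0.041 at 6 h and -0.31 at 24 h. The remaining PSAT1 probe set lay below the filter. The other ASNS probe sets, both numbered with chromosome 8, differed by 0.038 and -0.14 at 24 h. When all probe sets of the gene were averaged, the 24 h differences were -0.17 for ASNS and -0.30 for PSAT1.

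By role, the median difference of the 4 transcription factors was 0.013 at 6 h and -0.028 at 24 h, and that of the 3 amino acid synthesis genes was -0.020 and -0.40. The median of all 10707 named genes was 0.0029 and 0.030. At 24 h the transcription factors ranged from -0.22 to 1.17 and the amino acid genes from -0.56 to -0.27, without overlap. The lowest factor, ATF5 (-0.22), and the highest amino acid gene, PHGDH (-0.27), lay close together. With all probe sets of a gene averaged, ASNS was at -0.17 and the ranges overlapped. At 6 h the ranges of -0.091 to 0.42 and -0.078 to 0.15 overlapped. Over all members, 5 of 10 were above 0 at 6 h and 3 of 10 at 24 h, where 50.7% and 55.1% of named genes were above 0. No member was 2-fold higher or lower at 6 h, against 0.112% and 0.0934% of named genes. At 24 h 1 of 10 was at least 2-fold higher and 0 of 10 at least 2-fold lower, against 0.971% and 2.88% of named genes. The C646 array of 24 h was the lowest of the 4 for 6 of 10 members and the highest for 2 of 10, against 30.9% and 38.2% of named genes.

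**Figure D2:**
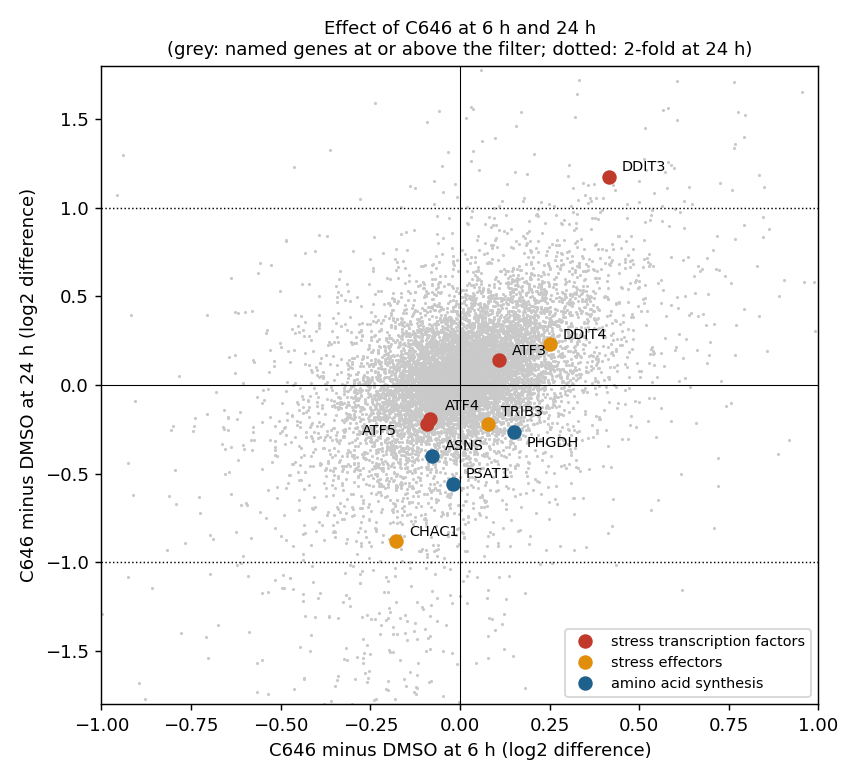
Log2 difference of C646 minus DMSO at 6 h (horizontal axis) against that at 24 h (vertical axis) for the 10 members, coloured by role, with the named genes at or above the filter in grey (those beyond the axes are not drawn) and dotted lines at 2-fold. DDIT3 lies above the upper line at 1.17, and CHAC1, PSAT1, ASNS and PHGDH lie between -0.88 and -0.27 on the vertical axis.

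A test was possible where arrays of different times stood in for replicates. The C646 array of 24 h was set against both DMSO arrays in limma, with Benjamini-Hochberg adjustment over 16579 probe sets at 0.05. In this comparison 2 of 10 members passed, against 13.6% of all probe sets. Of the members 1 rose and 1 fell, against 6.68% and 6.9% of probe sets, and 5 of 10 had an unadjusted p under 0.05, against 32.1%. DDIT3 rose by 0.97 ± 0.19 (SE, limma adjusted p = 0.044), and CHAC1 fell by 0.81 ± 0.10 (limma adjusted p = 0.019). ASNS, at -0.46 ± 0.098, just missed the threshold (limma adjusted p = 0.051). PSAT1 at -0.43 ± 0.14 (limma adjusted p = 0.12) and PHGDH at -0.28 ± 0.086 (limma adjusted p = 0.11) did not pass. The remaining members had limma adjusted p-values of 0.24 to 0.89. Only the DMSO pair gives residual spread here (1 degree of freedom, moderated by limma over all probe sets), and change of the vehicle over time enters it. The lone C646 array is assumed to vary like that pair, so "rose" and "fell" hold for this array and not for replicate cultures. The DDIT3 call ended with all rows kept (limma adjusted p = 0.088) and with quantile normalization (0.057), while ASNS passed among rows at or above the 60th percentile (0.043).

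At 6 h the same comparison called no probe set, with 2619 of 16579 (15.8%) at an unadjusted limma p under 0.05. DDIT3 at 0.62 ± 0.19 (limma adjusted p = 0.27) and DDIT4 at 0.32 ± 0.10 (limma adjusted p = 0.28) were the members with an unadjusted p in that range. The model of C646 over both times, on all 4 arrays with time as a term, also called no probe set, with 11.0% at an unadjusted p under 0.05. DDIT3 was the only member among these, at 0.79 ± 0.22 (limma adjusted p = 0.45). CHAC1 followed at -0.53 ± 0.20 (limma adjusted p = 0.45). Whether the effects of 6 h and 24 h differ could not be tested with 1 array per group.

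The wider pathway was described through 7 lists of other genes, 86 symbols in all, of which 75 were measured at or above the filter. Upstream of ATF4, the eIF2 kinases, the eIF2 and eIF2B subunits and the eIF2 phosphatase subunits went both ways, with a median over 14 genes of 0.058 (6 h) and 0.077 (24 h). In the comparison of the 24 h C646 array with both DMSO arrays 1 of the 14 passed, against 13.6% of all probe sets. PPP1R15A, which encodes GADD34, the stress-induced subunit that directs the phosphatase to eIF2, rose by 0.68 ± 0.098 (limma adjusted p = 0.023). It read 7.40 and 7.45 with DMSO and C646 at 6 h, and 7.32 and 8.04 at 24 h, so the C646 array of 24 h alone was high. EIF2B4, a subunit of eIF2B, the exchange factor of eIF2, was at 0.21 and 0.41 at 6 h and 24 h. The subunit genes EIF2B1 (0.31), EIF2B2 (0.38) and EIF2B5 (0.30), chosen after their values were seen, were also above the 75th percentile of all named genes (0.20) at 24 h, while EIF2B3 was at -0.015. EIF2AK3, the gene of the kinase PERK, was at -0.11 and -0.18, and EIF2S1, which encodes the phosphorylated subunit, at -0.14 and -0.20.

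Other target genes of ATF4 and CHOP had differences of both signs at 24 h. Their medians were -0.015 and -0.024 over 11 genes, of which 2 rose and 1 fell in limma, against 6.68% and 6.9% of all probe sets. TNFRSF10B, the death receptor DR5 and a known CHOP target, read 8.22 and 8.25 with DMSO and C646 at 6 h, and 8.31 and 9.22 at 24 h. It rose by 0.95 ± 0.10 (limma adjusted p = 0.013). SESN2 rose by 0.68 ± 0.14 (limma adjusted p = 0.046) and EIF4EBP1, a brake on translation initiation, fell by 0.42 ± 0.087 (limma adjusted p = 0.0497). SESN2 and EIF4EBP1 were chosen after their values were seen, and both calls ended with all rows kept (0.090 and 0.086) and with quantile normalization (0.074 and 0.059). That of EIF4EBP1 also ended without the mean-variance trend (0.050). TNFRSF10B and SESN2 are also known as p53 targets. CEBPB, a partner of ATF4 in dimers, was at 0.24 and 0.22, the oxidase gene ERO1A at -0.015 and -0.36, and the tRNA exporter gene XPOT at 0.013 and -0.37.

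Genes of amino acid supply differed by gene rather than as a group. Other amino acid and folate-linked synthesis genes showed a median over 7 genes of 0.086 (6 h) and -0.23 (24 h). MTHFD2, a mitochondrial folate enzyme, read 8.20 and 8.10 with DMSO and C646 at 6 h, and 8.04 and 7.11 at 24 h, and fell by 1.02 ± 0.11 (limma adjusted p = 0.014). SHMT2 was at 0.086 and -0.23, PSPH, the last enzyme of serine synthesis, at 0.053 and 0.18, and CTH at 0.26 and 0.11. Amino acid transporters had medians of 0.088 and 0.21 over 7 genes. Of these SLC7A1, the cationic amino acid transporter, fell by 0.70 ± 0.096 (limma adjusted p = 0.021), with readings of 7.69 and 7.55 at 6 h and 7.76 and 7.03 at 24 h. The neutral amino acid transporters SLC7A5 (0.40 and 0.33) and SLC1A4 (0.40 and 0.31) were above 0 at both times, and SLC1A5 was at 0.088 and -0.14.

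The tRNA synthetases known as ATF4 targets showed a median over 12 genes of -0.020 (6 h) and -0.11 (24 h), and 0 of 12 passed in limma at 24 h, with 5 at an unadjusted p under 0.05, which 32.1% of all probe sets reached. CARS1 was at -0.31 and -0.37 and MARS1 at -0.079 and -0.36, whereas WARS1 was at 0.29 and 0.42 and SARS1 at 0.041 and 0.24. Other cytosolic synthetases had medians of 0.063 and 0.017 over 6 genes, and 0 of 6 passed in limma, with 1 at that unadjusted p, against the same 32.1%. They included QARS1 at 0.19 and 0.22, RARS1 at 0.032 and 0.26, VARS1 at 0.011 and -0.24 and FARSA at 0.093 and -0.19. The motif TGATGNAA lay in promoter windows of 7 of 10 matched synthetase genes of the first list and of 0 of 6 of the second, against 4.46% of all genes. It lay in windows of 3 of 7 matched genes of the other amino acid and folate-linked list, 2 of 10 other ATF4 and CHOP targets, 1 of 12 genes of the eIF2 list and 1 of 19 of the ATF6 and XBP1 arm. It lay in those of 4 of 7 matched transporter genes, among them SLC7A1 and SLC1A4, whose differences at 24 h had opposite signs.

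The ATF6 and XBP1 arm of the unfolded protein response supplies chaperones to the endoplasmic reticulum. At 6 h the median over its 18 genes was 0.16, and 16 of 18 were above 0, against 50.7% of named genes. At 24 h the median was 0.040, and 12 of 18 were above 0, against 55.1%. SYVN1, a ubiquitin ligase of the endoplasmic reticulum, was at 0.31 and 0.26, and the chaperone gene DNAJB11 at 0.28 and 0.17. XBP1 was at -0.048 and -0.18, and ERN1, which encodes the sensor IRE1, at -0.15 and -0.12. No gene passed in limma at either time, with 6 of 18 at an unadjusted p under 0.05 at 6 h and 0 of 18 at 24 h, against 15.8% and 32.1% of all probe sets. Between 6 h and 24 h the DMSO values of this list changed by a median of -0.14, with 17 of 18 below 0. The median DMSO change of all named genes was -0.014, and their share below 0 was not counted.

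**Figure D3:**
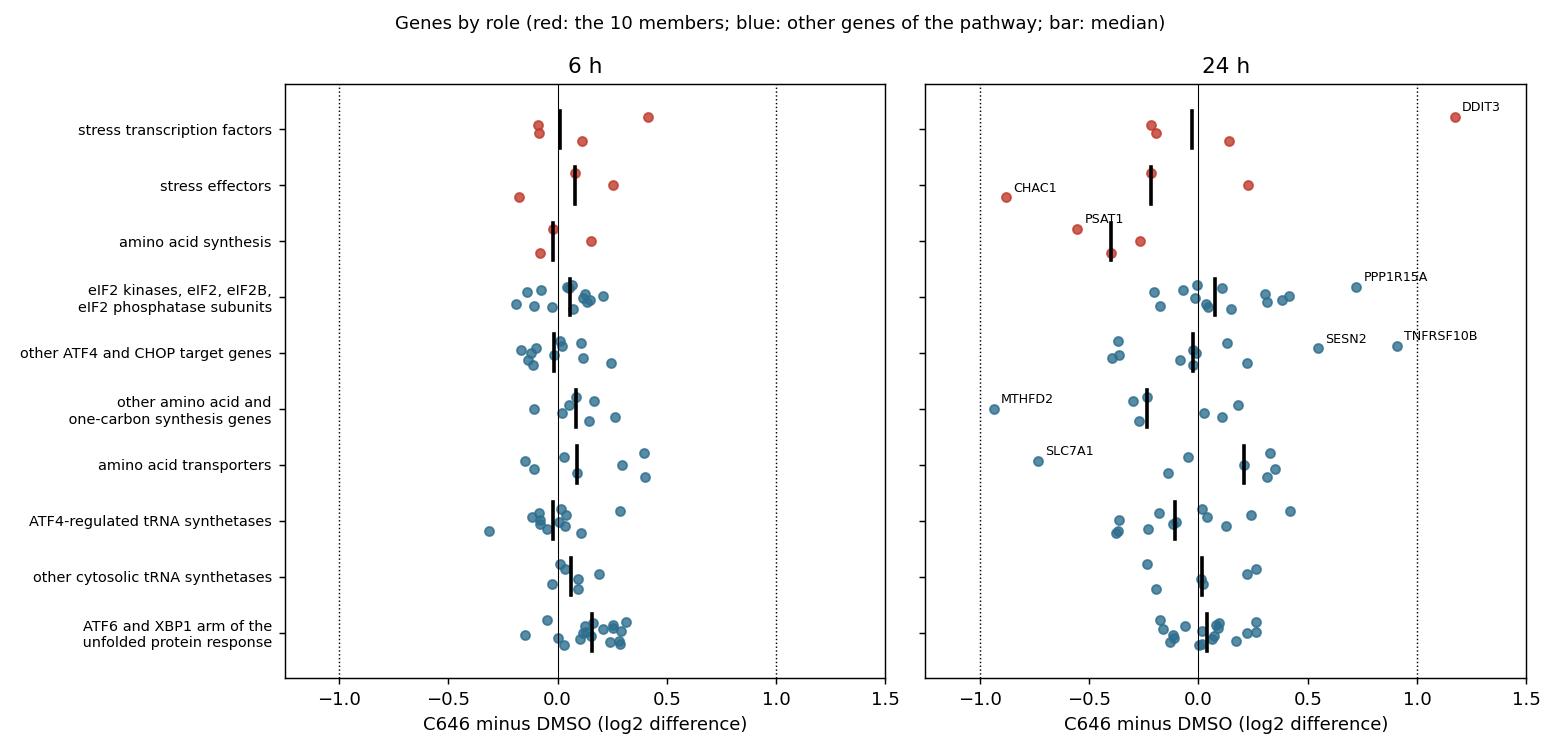
Log2 difference of C646 minus DMSO (horizontal axis) at 6 h (left) and 24 h (right) for each gene at or above the filter, by role (rows), with members in red, other pathway genes in blue, the median of each row as a black bar and 2-fold as dotted lines. At 24 h DDIT3, TNFRSF10B and PPP1R15A lie between 0.72 and 1.17, and MTHFD2, CHAC1 and SLC7A1 between -0.94 and -0.73.

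The genes most like DDIT3 and CHAC1 over the 4 arrays were found by the Euclidean distance over 3 log2 differences, namely both C646 effects and the change between the DMSO arrays. Nearest to DDIT3 were EXTL1, TFAP2E, MAN1B1-DT, SHC4 and NANOS1, at distances of 0.091 to 0.18. EXTL1, for example, was at 0.50 and 1.15 with a change of -0.39 in DMSO. Nearest to CHAC1 were ITSN1, HYLS1, DIAPH1, NUP188 and KIF21A, at distances of 0.036 to 0.10, and HYLS1 was at -0.17 and -0.85. The ITSN1 probe set is numbered among those of chromosome 5, while the gene lies on chromosome 21. None of these 10 genes is a member or on a pathway list. The 10 members and 75 measured pathway genes are a small part of the 10707 named genes, so little overlap was to be found.

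The arrays were comparable in scale, with medians of 4.39 to 4.41 and correlations of 0.976 to 0.996 over 27631 probe sets. Of 8 melanocyte markers, 6 had a probe set of their own, and all 6 passed the filter. Their median differences were 0.45 at 6 h and 0.57 at 24 h, but they varied by marker. At 6 h 5 of 6 were above 0, against 50.7% of named genes, and the range was -0.27 (TYRP1) to 0.79 (MITF). At 24 h 6 of 6 were above 0, against 55.1%, and the range was 0.078 (PMEL) to 1.49 (S100B). Of the markers of other cell types with a probe set of their own, those at or above the filter were 1 of 3 for keratinocytes (KRT10), 2 of 4 for fibroblasts (COL1A1 and LUM), 0 of 3 for leukocytes and 1 of 4 for endothelium (KDR). KDR read 8.12 and 8.65 with DMSO and C646 at 6 h, and 7.66 and 8.35 at 24 h, with differences of 0.53 and 0.68. The part of these markers in the members' differences was not tested.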

How the data were processed

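The authors deposited 1 table of log2 values for 27631 gene-level probe sets, running from 2.48 to 13.6. Its log2 scale was inferred from that range. The way the arrays were summarised and normalised was not given in the sources used here. Per the submitters' processing notes, the build was hg19. In the platform annotation 20429 probe sets had a single symbol, 4232 had several and 2970 had none. Of those with a single symbol, 20362 were updated through a GRCh38.p14 gene table. The probe set with the highest mean stood for a gene. Rows at or above the 40th percentile of the mean (3.96), 16579 in all, were tested. A probe set was placed by the chromosome most frequent among its 30 nearest numbered neighbours. By this measure 7.47% of placed rows were numbered with another chromosome than their gene's.

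Differences are of 1 array against 1 array. The fits used limma 3.58.1 in R 4.3.3 (lmFit, eBayes with a mean-variance trend, Benjamini-Hochberg adjustment). Their estimates were checked for bias on simulated data with equal noise for all probe sets and arrays. That simulation cannot check the assumption about the lone C646 array or the change of the vehicle over time. Motifs and figures used Python 3.11.15. For arrays, their number limits the precision. The members and lists were chosen with earlier results of these data known. Named are all members, each pathway list's 2 highest and 2 lowest genes by mean effect and every gene at least 2-fold different, and the 5 genes nearest to DDIT3 and to CHAC1. Alternatives were quantile normalization, the mean of a gene's rows, both DMSO arrays as control, other filters, a 1.5-fold threshold, no trend, no time term and leaving out arrays.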

Additional observations from a re-analysis of the deposited data

Results flagged for a closer look

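Some differences had opposite signs at 6 h and 24 h, with 1 array on each side, and this was not tested. The effect at 24 h minus that at 6 h was -0.42 for PHGDH and -0.30 for TRIB3, both above 0 at 6 h and below 0 at 24 h. The same order held for the median of the other amino acid and folate-linked synthesis genes and its middle gene SHMT2 (both -0.32). It also held for XPOT (-0.38), FARSA (-0.29), VARS1 (-0.25), SLC1A5 (-0.23) and EIF4EBP1 (-0.51), and for further pathway genes such as AARS1 (-0.48) and PYCR1 (-0.46). SESN2 had the opposite order, below 0 at 6 h and above 0 at 24 h (0.65), as did SLC38A2 (0.46). The list is not complete, and the share of all named genes that changed sign was not counted.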

How the results depend on the processing

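The fit over both times has time as a term and so compares arrays within each time. Beyond that, no paired analysis was possible because each group holds 1 array and the labels carry no replicate numbers. The medians of the transcription factors and of the amino acid genes moved by less than 0.16, the SD over named genes of the change between the DMSO arrays, under every alternative run. This included the restriction to probe sets numbered with their gene's own chromosome, chosen after seeing the data. The count of members 2-fold different at 24 h, 1, became 0 against the mean of both DMSO arrays and 2 at 1.5-fold (DDIT3 and CHAC1). The count called at 24 h against both DMSO arrays, 2, became 1 with all rows and 1 with quantile normalization, CHAC1 in each, and 3 with rows at or above the 60th percentile, where ASNS also fell. The count over both times, 0, ranged from 0 to 2 when each array was left out. It was 2 without the C646 array of 6 h, which is the comparison of the 24 h array with both DMSO arrays, where the lone C646 array is assumed to vary like them. The other 38 counts and role medians stayed within 1.5 times or 0.16, respectively, as did 132 values of single members and pathway lists. The 4 that did not were DDIT3 at both times against the mean of both DMSO arrays, and ASNS and PSAT1 at 24 h with all probe sets averaged.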
